A study of Mus musculus with 6 samples.

Results

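Most Slc25 carriers move metabolites across the inner mitochondrial membrane. Genes of this family were followed in brain, liver and intestine of mice after whole-body irradiation. Members were all array probes whose gene symbol, or a synonym of it, starts with Slc25a in the annotation of the array. This rule gave 51 probes of 44 genes among 29922 probes, of which 21020 carry a symbol and stand for 16637 genes. In the mouse annotation the family has 50 protein-coding genes, and the other 6 were not analysed here. A single probe read 38 of the genes, 2 probes read 5 genes, and 3 probes read Slc25a40. The uncoupling protein genes Ucp1 and Ucp3 belong to the set through their synonyms, and 5 genes stood under an older name (Slc25a47, Slc25a48, Slc25a51, Slc25a53 and Slc25a54).

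Irradiated mice were male FVB transgenic mice, 6 to 8 weeks old, that received 8.5 Gy of X-rays over the whole body and gave RNA 3 h later. Untreated mice were of the same strain, sex, age range and transgene. In both groups NF-κB-responsive elements drive a luciferase transgene, so no comparison includes mice without it. RNA labelled with Cy5 was hybridized to a single-colour oligonucleotide array, and the data hold 1 column of spot intensities for each organ and treatment, 6 in all. The methods name replicates from independent mice, but do not state if a column stands for 1 array or for several mice combined. The values below therefore carry no SD or p-value, and the number of arrays behind a column, which limits its precision, is not known.

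Carriers of this family share a fold of repeated membrane-spanning modules and mostly work as exchangers, taking 1 metabolite into the matrix as another leaves. They feed the citric acid cycle, oxidative phosphorylation, the urea cycle, fatty acid oxidation and heme synthesis. Liver relies on carriers of the urea cycle and gluconeogenesis, brain on the malate-aspartate shuttle and on glutamate carriers, and the intestinal epithelium on oxidation of glutamine and fatty acids.

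A probe was counted as changed when the ratio of irradiated over untreated intensity reached 1.8-fold in either direction, the threshold of the study's methods. Folds are given where both intensities were at or above the median of their sample, which was 103 in both brain samples, 54 in both liver samples, 64.0 in irradiated intestine and 64.5 in untreated intestine. When sorted, both samples of an organ hold nearly the same values (apart by no more than 0.05 in log2, in liver), so a shift shared by all genes could not be seen. The markers fixed for each organ were bright in that organ, with median percentiles of 97.3 in irradiated and 97.8 in untreated brain, 99.9 in both liver samples, and 99.1 in irradiated and 98.5 in untreated intestine. Among the brain markers Gad1 lay under the median in both brain samples. These were whole organs, in which fewer cells of a type and less RNA per cell cannot be told apart.

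In comparison with untreated mice, 5 of the 44 carrier genes were lower by 1.8-fold or more in 1 organ each, and none was higher. In the irradiated intestine these were Slc25a11, the oxoglutarate-malate carrier, Slc25a20, the carnitine-acylcarnitine carrier, and Slc25a3, the phosphate carrier. In the irradiated liver it was Slc25a25, a calcium-regulated ATP-Mg/phosphate carrier, and in the irradiated brain Slc25a14, a brain carrier grouped with the uncoupling proteins. The other 39 genes stayed within 1.8-fold in every organ where they had a value.

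These counts lie near the background of the array. In the intestine 3 of 51 carrier probes passed the threshold, all lower, against 4.4% of all probes (1.69% higher and 2.71% lower). In the liver it was 1 of 48 carrier probes, also lower, against 4.12% of all probes (1.57% higher and 2.55% lower). In the brain 1 of 48 was lower, against 1.59% of all probes (0.496% higher and 1.1% lower). Among probes at or above the sample medians, 3 of 26 carrier probes passed in intestine against 8.43% of all such probes, 1 of 29 in liver against 7.54%, and 1 of 25 in brain against 2.64%. Carrier probes had a median log2 ratio of -0.01 in brain (0.02 for all probes), -0.07 in liver (0.00 for all probes) and 0.00 in intestine (0.01 for all probes). Most carriers thus read much alike in irradiated and untreated organs. Ratios within 1.25-fold were found for 36 of 48 probes in brain (75%, beside 77.0% of all probes), 39 of 48 in liver (81.2%, beside 70.4%) and 41 of 51 in intestine (80.4%, beside 75.9%).

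**Figure D1:**
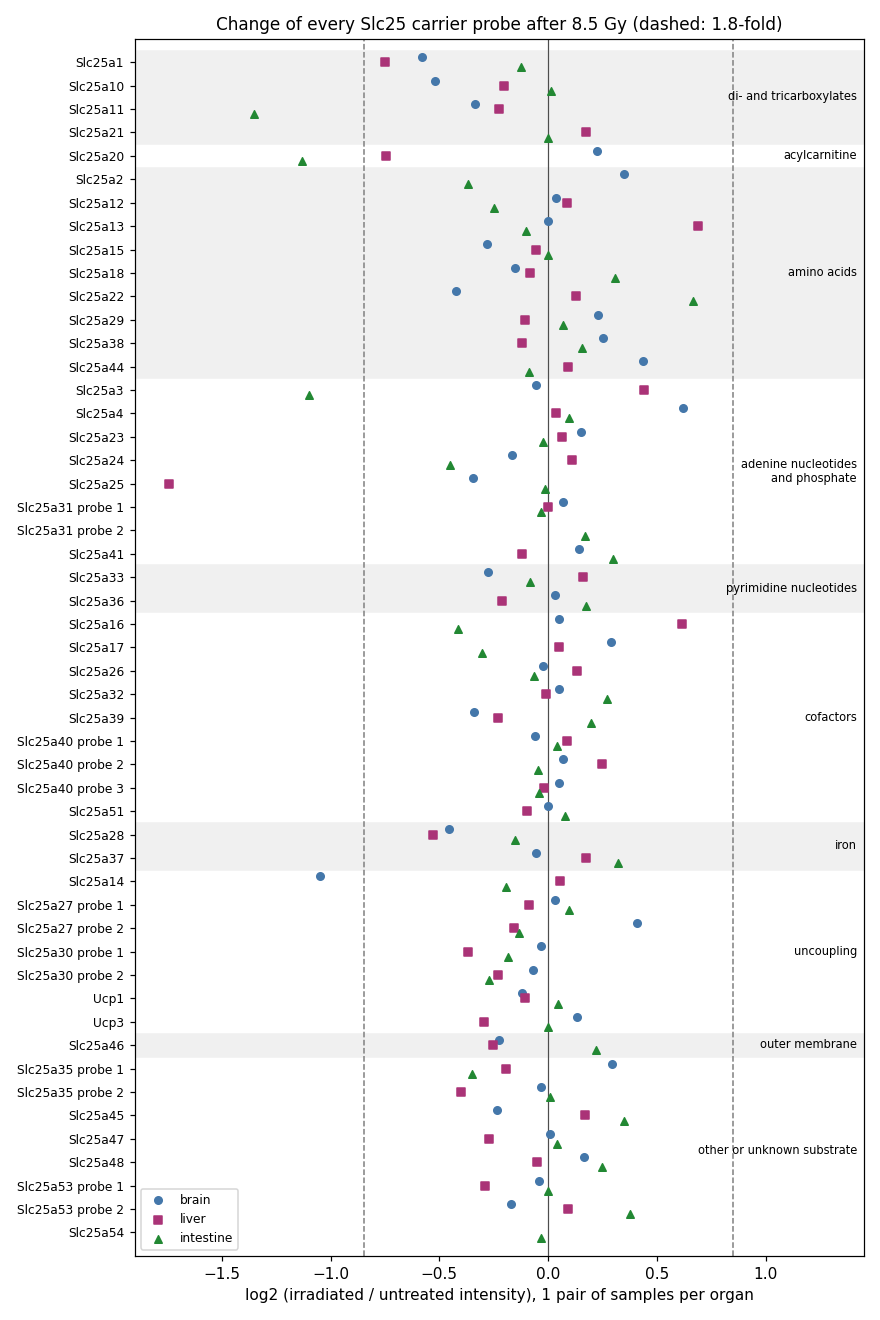
The log2 ratio of irradiated over untreated intensity (x axis) is plotted for each of the 51 carrier probes (rows, grouped by transported substrate), with circles for brain, squares for liver and triangles for intestine. The 5 points left of the dashed line at 1.8-fold are Slc25a11, Slc25a20 and Slc25a3 in intestine, Slc25a25 in liver and Slc25a14 in brain, and no point lies right of the other dashed line.

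For the 5 genes past the threshold, the 250 bases before a transcription start are shown, so that the promoter of each gene can be read beside its change. Sequences are from RefSeq on GRCm38.p6, read 5′ to 3′ on the strand of the gene, and capitals mark matches on either strand to the NRF-1 motif (GCGC, any 2 bases, GCGC), the CRE core (TGACGT), the CCAAT box (CCAAT) and the GC box (GGGCGG). Slc25a14 and Slc25a25 have 3 starts each in the table, of which 1 and 2 are shown.
Slc25a3 (chr10:91123968-91124217, minus strand): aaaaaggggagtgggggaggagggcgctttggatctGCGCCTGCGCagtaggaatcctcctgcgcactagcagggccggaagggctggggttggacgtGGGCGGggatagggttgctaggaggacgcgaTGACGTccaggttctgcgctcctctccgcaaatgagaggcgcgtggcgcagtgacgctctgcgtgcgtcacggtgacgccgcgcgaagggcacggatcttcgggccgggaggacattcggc
Slc25a11 (chr11:70647040-70647289, minus strand): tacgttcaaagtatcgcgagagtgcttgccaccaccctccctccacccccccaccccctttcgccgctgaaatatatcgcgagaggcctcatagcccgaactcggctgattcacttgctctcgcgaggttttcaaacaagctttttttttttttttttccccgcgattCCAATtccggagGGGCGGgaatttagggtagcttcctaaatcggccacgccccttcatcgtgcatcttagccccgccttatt
Slc25a20 (chr9:108661886-108662135, plus strand): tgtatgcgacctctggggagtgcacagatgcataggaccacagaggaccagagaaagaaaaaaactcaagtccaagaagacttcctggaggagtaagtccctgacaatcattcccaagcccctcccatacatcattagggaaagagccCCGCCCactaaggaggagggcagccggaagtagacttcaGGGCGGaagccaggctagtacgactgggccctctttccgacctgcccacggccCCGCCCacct
Slc25a25, first start (chr2:32451471-32451720, minus strand): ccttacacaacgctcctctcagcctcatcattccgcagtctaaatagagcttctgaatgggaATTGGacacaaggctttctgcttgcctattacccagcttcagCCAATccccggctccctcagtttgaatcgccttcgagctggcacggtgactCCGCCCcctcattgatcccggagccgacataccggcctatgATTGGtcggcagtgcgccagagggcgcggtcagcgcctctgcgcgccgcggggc
Slc25a25, last start (chr2:32424067-32424316, minus strand): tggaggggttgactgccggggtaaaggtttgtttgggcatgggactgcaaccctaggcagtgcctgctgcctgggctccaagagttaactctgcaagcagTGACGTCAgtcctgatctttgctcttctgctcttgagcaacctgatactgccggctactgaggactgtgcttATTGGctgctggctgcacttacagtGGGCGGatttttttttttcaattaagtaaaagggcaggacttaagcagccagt
Slc25a14, first start (chrX:48623198-48623447, plus strand): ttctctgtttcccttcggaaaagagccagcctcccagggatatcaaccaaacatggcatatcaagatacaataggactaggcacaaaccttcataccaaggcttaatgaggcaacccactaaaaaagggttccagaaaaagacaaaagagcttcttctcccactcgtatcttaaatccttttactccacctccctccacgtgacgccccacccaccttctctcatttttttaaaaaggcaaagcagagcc

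The 3 genes lower in the intestine had no set of these motifs in common beyond the GC box, which the Slc25a20 window holds 3 times and the Slc25a3 and Slc25a11 windows once each. The Slc25a3 window also holds the NRF-1 motif and a CRE core, and the Slc25a11 window a CCAAT box. At its first start Slc25a25 has 3 CCAAT boxes, and at its last start 2 CRE cores that overlap in a palindrome. The Slc25a14 window shown holds none of the marked motifs, but its windows not shown hold 1 GC box each. Windows were found for 34 of the 44 genes, 44 windows in all, and 65.9% of these held a GC box, against 32.7% of all 32851 windows. The NRF-1 motif was in 4.55% of the carrier windows and 4.98% of all windows, the CRE core in 9.09% and 6.47%, and the CCAAT box in 43.2% and 33.8%. An E-box (CACGTG) was in 18.2% of the carrier windows and 6.02% of all windows, the p53 decamer motif in 13.6% and 7.13%, and the NF-κB motif in 9.09% and 7.25%. These motifs are not marked in the sequences. Of the windows shown, that of Slc25a14 holds an E-box and that of Slc25a11 a p53 decamer motif. Of those not shown, the middle Slc25a14 window holds an E-box and the Slc25a25 window a p53 decamer motif. Carrier windows were richer in G and C, with a median of 57.0% against 52.4% in all windows. The median count of CG dinucleotides was 11.5 in carrier windows and 6 in all windows. Carriers were limited to protein-coding genes, whereas all windows were taken without that limit. Windows of protein-coding genes alone were not compared. A match says only that these letters stand in the window.

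Among carriers of di- and tricarboxylates, Slc25a11 showed the largest change of the family in the intestine. It read 283.5 in irradiated and 724 in untreated intestine (2.55-fold lower, log2 -1.35), 298.5 in irradiated and 349.5 in untreated liver (log2 -0.23), and 530.5 in irradiated and 669.5 in untreated brain (log2 -0.34). All 3 irradiated organs were thus below their untreated counterparts, but only the intestine passed the threshold. Slc25a1, which exports citrate for fatty acid synthesis, read 89.0 in irradiated and 149.5 in untreated liver (1.68-fold lower), 281 in irradiated and 420.5 in untreated brain (log2 -0.58), and 218 in irradiated and 237.5 in untreated intestine (log2 -0.12). It lay on the same side in every organ without reaching 1.8-fold. Slc25a10, the dicarboxylate carrier, read 197.5 in irradiated and 283 in untreated brain (log2 -0.52) and had log2 ratios of -0.20 in liver and 0.01 in intestine. The 3 carriers of this class with a value in brain all had ratios below 1 there, with a median log2 ratio of -0.52, and none passed the threshold. Slc25a21, the oxoadipate carrier, had no value in brain and read 91.5 in irradiated and 81.0 in untreated liver.

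Slc25a20 carries acylcarnitines inward for fatty acid oxidation. It read 260 in irradiated and 570.25 in untreated intestine (2.19-fold lower, log2 -1.13), 515.25 in irradiated and 863 in untreated liver (1.67-fold lower, log2 -0.74), and 314.5 in irradiated and 269 in untreated brain (log2 0.23). Liver fell on the same side as intestine and short of the threshold, and brain on the other side. None of the 6 carnitine shuttle genes beside the carrier passed 1.8-fold in any organ. Of these, Cpt2, the inner membrane carnitine palmitoyltransferase, read 1891.75 in irradiated and 1051.5 in untreated intestine (log2 0.85, just within the threshold), and Cpt1a, the outer membrane enzyme, read 792 in irradiated and 1060.5 in untreated intestine (log2 -0.42).

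Of the carriers of adenine nucleotides and phosphate, Slc25a3 passed the threshold in intestine and Slc25a25 in liver. Slc25a3, which supplies phosphate to ATP synthase, read 1821 in irradiated and 3906.5 in untreated intestine (2.15-fold lower, log2 -1.10), 1292.5 in irradiated and 951.5 in untreated liver (1.36-fold higher, log2 0.44), and 3293 in irradiated and 3424.25 in untreated brain (log2 -0.06). The gene was thus lower in 1 organ, within 1.5-fold on the other side in liver, and nearly level in brain. Slc25a25 read 91.5 in irradiated and 306 in untreated liver (3.34-fold lower, log2 -1.74), the largest change of any carrier in any organ. Brain read 141.5 in irradiated and 180 in untreated mice (log2 -0.35), and intestine 98.0 in irradiated and 99.0 in untreated mice (log2 -0.01). Related ATP-Mg/phosphate carriers lay near their untreated level in liver, where Slc25a23 read 197 in irradiated and 188.5 in untreated mice and Slc25a24 read 69.0 in irradiated and 64.0 in untreated mice. Slc25a24 in the intestine read 593 in irradiated and 811 in untreated mice (log2 -0.45).

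Slc25a4, the ADP/ATP carrier of heart, muscle and brain, was the carrier with the largest positive change in brain. It read 16559.5 in irradiated and 10786.5 in untreated brain (1.54-fold higher, log2 0.62), 134 in irradiated and 130.5 in untreated liver, and 931 in irradiated and 872.25 in untreated intestine. It was the only carrier probe of the 47 with a value in all organs that lay above its untreated level in each of them, whereas 17.6% of all probes did so. This rests on small ratios in liver and intestine. After correction of the intensity trend, the log2 change of Slc25a4 was -0.02 in liver, -0.002 in intestine and 0.47 in brain. Another 6 probes lay below their untreated level in each organ (Slc25a1, Slc25a11, Slc25a25, Slc25a28 and both probes of Slc25a30), against 15.1% of all probes. The germ-line ADP/ATP carrier gene Slc25a31 and the ATP-Mg/phosphate carrier gene Slc25a41 lay under the sample medians throughout.

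**Figure D2:**
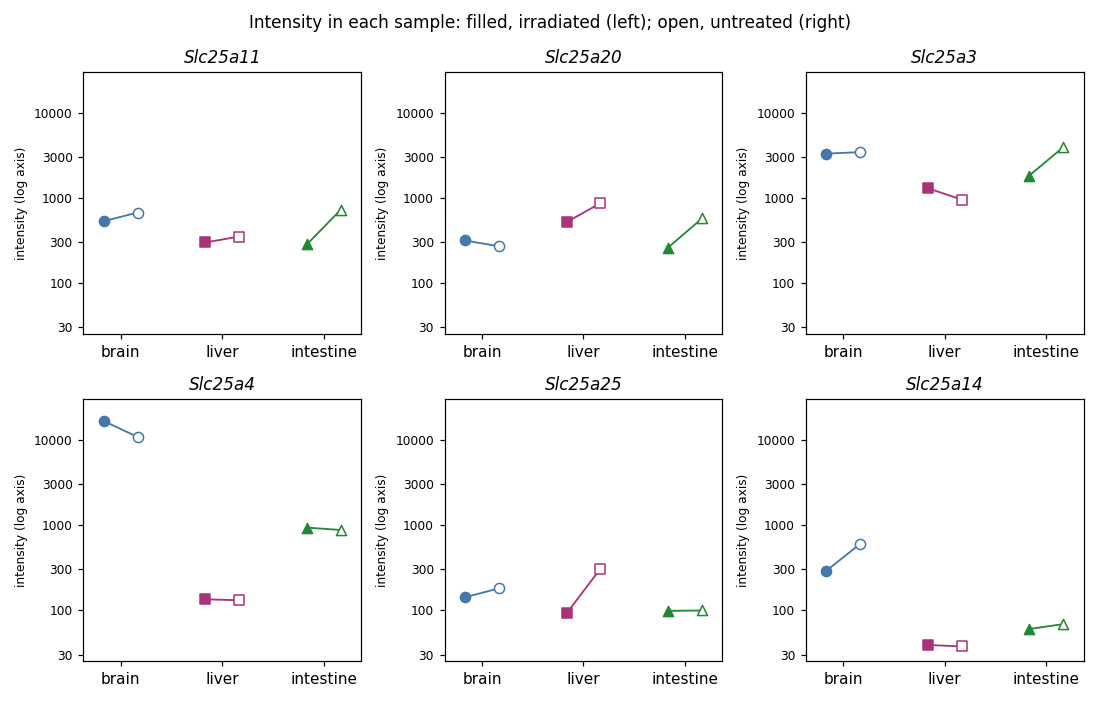
Intensities (y axis, log scale) of the 5 carriers past 1.8-fold and of Slc25a4 are plotted in each organ, with filled symbols for the irradiated sample and open symbols to their right for the untreated sample. The steepest lines are those of Slc25a25 in liver (91.5 irradiated, 306 untreated) and Slc25a11 in intestine (283.5 irradiated, 724 untreated).

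In the uncoupling class only Slc25a14 passed the threshold. Its probe read 288.5 in irradiated and 597.5 in untreated brain (2.07-fold lower, log2 -1.05). The same probe was dim elsewhere, at 39.0 in irradiated and 37.5 in untreated liver and 60.0 in irradiated and 68.5 in untreated intestine. Slc25a27, the other brain carrier of this class, had 2 probes, of which 1 read 235.25 in irradiated and 177 in untreated brain (1.33-fold higher, within the threshold) and the other 93.5 in irradiated and 91.5 in untreated brain. Ucp1 of brown fat, Ucp3 of muscle and both probes of Slc25a30, a carrier of kidney, lay under the medians in all 6 samples. Their intensities ran between 32.0 and 73.0.

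No carrier of amino acids passed the threshold. The aspartate-glutamate carrier citrin, Slc25a13, read 235.5 in irradiated and 146 in untreated liver (1.61-fold higher, log2 0.69), where it serves the malate-aspartate shuttle and the urea cycle. Its isoform aralar, Slc25a12, read 380.5 in irradiated and 370.5 in untreated brain and 51.5 in irradiated and 48.5 in untreated liver. The glutamate carrier gene Slc25a22 read 663.75 in irradiated and 418 in untreated intestine (1.59-fold higher, log2 0.67), 606 in irradiated and 811.5 in untreated brain (log2 -0.42), and 292.5 in irradiated and 267.5 in untreated liver. Its value was thus higher in 1 irradiated organ and lower in another, in each case short of 1.8-fold. Slc25a15, the ornithine-citrulline carrier of the urea cycle, read 171.5 in irradiated and 178 in untreated liver, 246 in both intestine samples, and 88.0 in irradiated and 107 in untreated brain. Slc25a44, which carries branched-chain amino acids, read 251.5 in irradiated and 186 in untreated brain (1.35-fold higher), and had log2 ratios of 0.09 in liver and -0.09 in intestine. Over the whole class, which also holds Slc25a2, Slc25a18, Slc25a29 and Slc25a38, log2 ratios lay between -0.42 and 0.44 for brain, between -0.12 and 0.69 for liver, and between -0.37 and 0.67 for intestine.

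Carriers of cofactors and of iron also stayed within 1.8-fold. The glutathione carrier gene Slc25a39 read 745 in irradiated and 942.5 in untreated brain, 1451.5 in irradiated and 1703 in untreated liver, and 1918 in irradiated and 1674.75 in untreated intestine. Its ratios thus stayed within 1.27-fold in either direction. Slc25a16, related to coenzyme A transport, read 186 in irradiated and 121.5 in untreated liver (1.53-fold higher, log2 0.61), and 151.5 in irradiated and 146.5 in untreated brain. The iron importer mitoferrin-2, Slc25a28, read 292.5 in irradiated and 422 in untreated liver (1.44-fold lower), 379.5 in irradiated and 520 in untreated brain (1.37-fold lower), and 716.5 in irradiated and 796.75 in untreated intestine. Mitoferrin-1, Slc25a37, which serves red cell precursors, read 308.5 in irradiated and 247.25 in untreated intestine (1.25-fold higher) and was within 1.13-fold in the other organs. The pyrimidine nucleotide carriers Slc25a33 and Slc25a36 and the outer membrane protein Slc25a46 had log2 ratios no farther than 0.27 from 0. Over all cofactor carriers, which also include Slc25a17, Slc25a26, Slc25a32, Slc25a40 and Slc25a51, log2 ratios lay between -0.34 and 0.29 for brain, between -0.23 and 0.61 for liver, and between -0.42 and 0.27 for intestine. Carriers of other or unknown substrates (Slc25a35, Slc25a45, Slc25a47, Slc25a48, Slc25a53 and Slc25a54) had log2 ratios between -0.23 and 0.30 for brain, between -0.40 and 0.17 for liver, and between -0.35 and 0.37 for intestine.

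With the threshold lowered to 1.5-fold, 2 carrier probes passed in brain (Slc25a4 higher, Slc25a14 lower), 5 in liver (Slc25a13 and Slc25a16 higher, Slc25a25, Slc25a1 and Slc25a20 lower) and 4 in intestine (Slc25a22 higher and the same 3 lower). At that threshold 6.15%, 10.8% and 9.9% of all probes passed in these organs. The carriers that pass only here were named after their values had been seen.

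**Figure D3:**
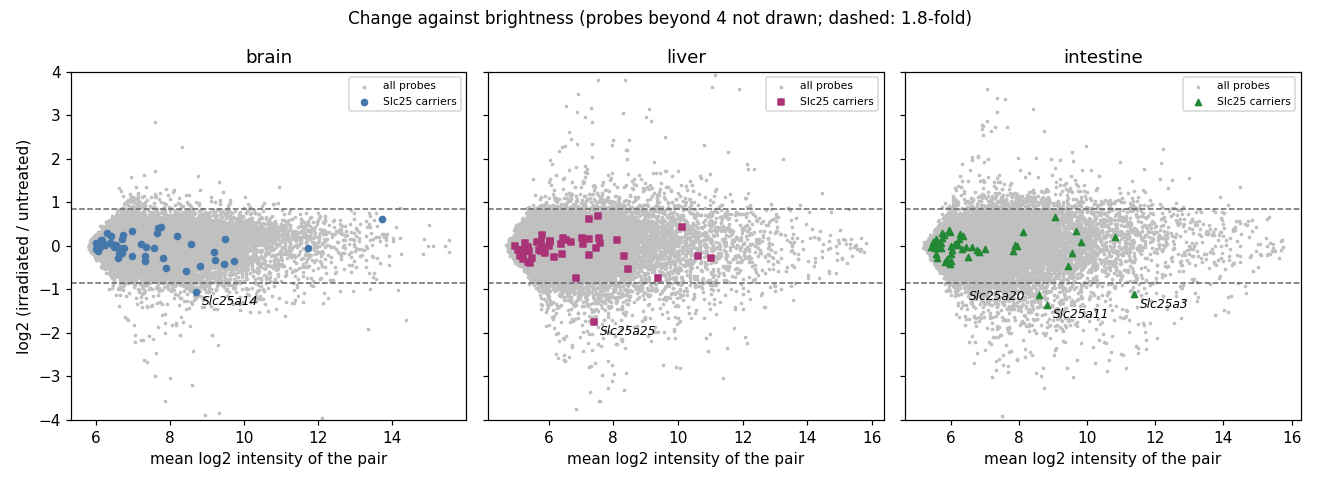
The log2 ratio of irradiated over untreated intensity (y axis) is plotted against the mean log2 intensity of the pair (x axis) in brain, liver and intestine, with all probes in grey (those beyond a log2 ratio of 4 are not drawn) and the carriers in colour. Carriers past the dashed 1.8-fold lines are named, and each lies away from the dim left edge of its panel.

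Carriers read by several probes allowed a limited comparison within the array. For 6 genes and 16 pairs of gene and organ, probes of a gene lay at most 0.38 apart on the log2 scale, the widest being Slc25a53 in liver, and none passed 1.8-fold. They fell on the same side of 0 in 7 of the 16. With no probe of these genes past 1.8-fold, agreement of probes on a larger change could not be checked. The 5 genes past the threshold were read by 1 probe each, so this comparison does not cover them.

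The carriers differed in the organ where they were brightest. Since intensities were scaled within each organ and their medians differ between organs, a probe was set beside itself by its percentile among all probes of the same sample. Of the 47 probes with a value everywhere, 15 stood highest in untreated brain, 18 in untreated liver and 14 in untreated intestine, which are 31.9%, 38.3% and 29.8%, beside 28.6%, 35.1% and 36.4% of all probes. In irradiated organs the highest organ was the same for 30 of the 47. The share over all probes was not computed, so this count has no background beside it. Some leads were also small, such as 0.25 percentile points for Slc25a39 in untreated liver.

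Slc25a47, a carrier known from hepatocytes, stood at the 98.2 percentile in irradiated and 98.5 in untreated liver, against at most 30.4 in brain and 55.7 in intestine. It read 1895 in irradiated and 2284 in untreated liver (1.21-fold lower). Slc25a13 stood at 88.7 in irradiated and 82.5 in untreated liver, with 21.8 in both brain samples. In brain the lead belonged to the glutamate carrier gene Slc25a18, at 92.1 in irradiated and 93.0 in untreated brain against 46.3 in irradiated and 49.5 in untreated liver. Among probes at or above the median of both brain samples, Slc25a14 and Slc25a12 had the next largest leads, with 84.0 in irradiated and 92.8 in untreated brain for Slc25a14, and 88.1 in irradiated and 87.8 in untreated brain for Slc25a12. In intestine Slc25a24 stood at 94.3 in irradiated and 95.7 in untreated samples, and Slc25a45 at 96.2 in irradiated and 95.3 in untreated samples. Slc25a25 stood at 72.5 in irradiated and 91.1 in untreated liver, and the irradiated level is close to that of intestine (69.2 in irradiated and 69.5 in untreated mice). Each of these leads belonged to the same organ in irradiated samples. The other leads shown in the plot of percentiles were those of Slc25a23, at 94.5 in irradiated and 93.8 in untreated brain, of Slc25a26, at 75.6 in irradiated and 76.6 in untreated intestine, of 1 Slc25a35 probe, at 68.4 in irradiated and 72.6 in untreated liver, and of the other Slc25a35 probe, at 58.3 in irradiated and 57.9 in untreated intestine. Dim probes of Slc25a27, Slc25a30 and Ucp3 complete the plot, and for them small differences in intensity span many percentiles.

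**Figure D4:**
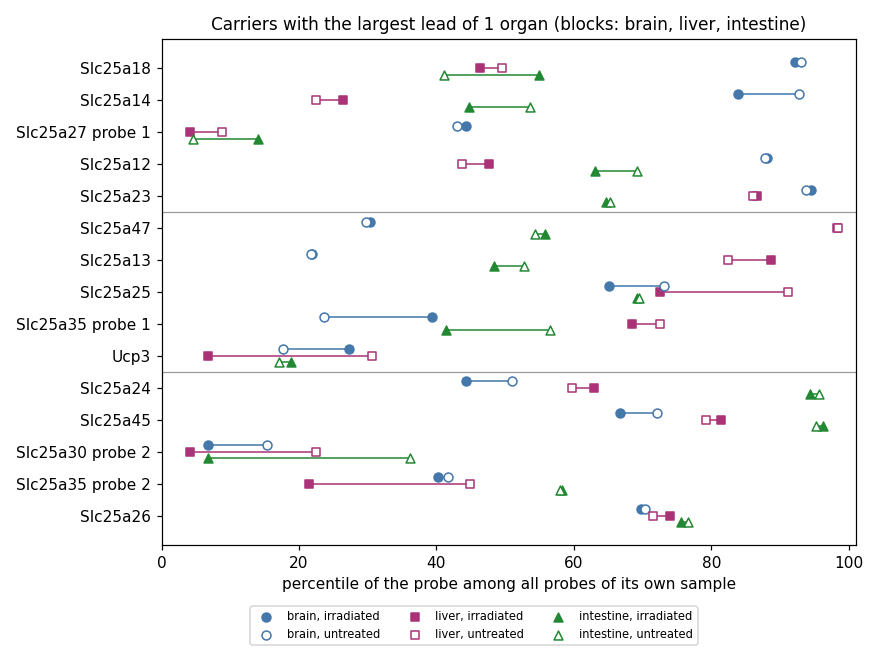
Percentile of a probe among all probes of its own sample (x axis) for the 5 probes with the largest lead in untreated brain (upper block), liver (middle block) and intestine (lower block), with filled symbols for irradiated and open symbols for untreated samples. Slc25a25 in liver moved the most among the bright probes, at 72.5 in the irradiated and 91.1 in the untreated sample.

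Across the family, 18 genes had a probe at or above the medians of both samples in all 3 organs, 8 genes in 2 organs, 9 in 1 organ and 9 in none. The last are Slc25a29, Slc25a30, Slc25a31, Slc25a36, Slc25a41, Slc25a51, Slc25a54, Ucp1 and Ucp3, for which no fold is given. Shares over all genes of the array were not computed, so these counts have no background beside them. A gene with several probes was counted by its best probe. The probes of Slc25a21 and Slc25a54 and 1 of the 2 Slc25a31 probes had no value in brain, and those of Slc25a2 and Slc25a54 and the same Slc25a31 probe had none in liver.

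Genes that work with the carriers were taken from 11 lists of 77 genes, written from general knowledge but with earlier results of these data known. Of these genes, 67 were measured in brain, 66 in liver and 67 in intestine. In the intestine 2 were higher and 4 lower (8.96% of those measured, against 4.51% of all genes). In the liver 1 was higher and 2 lower (4.55%, against 4.05%), and in the brain none was higher and 3 were lower (4.48%, against 1.37%). Most of these partner genes read at or above the sample medians, where more probes pass. Of all probes at or above the medians, 8.43% passed in intestine, 7.54% in liver and 2.64% in brain. In the malate-aspartate shuttle, where Slc25a11 works, the aminotransferase gene Got2 read 2484.5 in irradiated and 5087 in untreated liver (2.05-fold lower). In intestine Got2 read 798 in irradiated and 1391.5 in untreated mice (1.74-fold lower, short of the threshold). Mdh1 of the same list went the other way there, at 12198 in irradiated and 7133.5 in untreated mice (1.71-fold higher, also short of it). The log2 ratios of Mdh2 and Got1 in intestine were 0.13 and -0.51. In liver those of Mdh1, Mdh2 and Got1 were -0.79, 0.55 and -0.06. Citrate synthase, Cs, whose product Slc25a1 exports, read 517.25 in irradiated and 1039 in untreated brain (2.01-fold lower) and 552.5 in irradiated and 1002.25 in untreated intestine (1.81-fold lower). It was thus lower in both organs, while Slc25a1 passed in neither.

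Other partners past the threshold belonged to several pathways. Arg2, a mitochondrial arginase, read 1186 in irradiated and 3746.5 in untreated intestine (3.16-fold lower), and Oat, ornithine aminotransferase, read 4931 in irradiated and 9296 in untreated intestine (1.89-fold lower), beside equal readings of the ornithine carrier gene Slc25a15 there. Fech, which inserts iron into protoporphyrin to make heme, read 356 in irradiated and 641.25 in untreated liver (log2 -0.85, past the threshold) and 54.0 in irradiated and 99.0 in untreated intestine. Vdac1, an outer membrane porin, read 3253.5 in irradiated and 1784.5 in untreated intestine (1.82-fold higher). The related porin genes lay on the other side there, within the threshold. Vdac2 read 1983.5 in irradiated and 3493 in untreated intestine (1.76-fold lower), and Vdac3 read 780 in irradiated and 965 in untreated intestine (log2 -0.31). The thiamine transporter gene Slc19a2 read 275.5 in irradiated and 99.0 in untreated intestine (2.78-fold higher), and the folate transporter gene Slc19a1 read 389 in irradiated and 777 in untreated brain and was lower. Tomm22, an import receptor, averaged 728 in irradiated and 174 in untreated liver over 2 probes (4.18-fold higher). Smdt1, a subunit of the calcium uniporter, read 1102.5 in irradiated and 17135.5 in untreated brain (15.5-fold lower, on 1 probe).

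Some markers of other cell types differed in the intestinal comparison, while others of the same lists did not. Of 8 liver markers, 4 were lower in irradiated intestine, with Alb (albumin) at 268 in irradiated and 2175 in untreated intestine, and Fgb (fibrinogen) at 159 in irradiated and 622 in untreated intestine. The whole list summed to 36988 in irradiated and 38861 in untreated intestine, where Apoa1, which the intestine also makes, read 34794.5 in irradiated and 33592 in untreated mice. Of 3 B cell markers measured, Cd79b was lower at 71.0 in irradiated and 471.5 in untreated intestine (the list summed to 249 in irradiated and 720 in untreated intestine). Within the threshold, Cd79a read 111.5 in irradiated and 190.5 in untreated intestine, and Ms4a1 66.5 in irradiated and 58.0 in untreated intestine. Of 6 pancreatic markers, only Ctrb1 was lower, at 315.5 in irradiated and 1193.5 in untreated intestine (the list summed to 749 in irradiated and 1554 in untreated intestine). Cela1 read 207.5 in irradiated and 142.5 in untreated intestine, on the other side and within the threshold. Cela2a was nearly level there (log2 -0.01), and Prss2, Cpa1 and Pnlip lay under the medians of both intestine samples. None of these markers was at 0, and their part in the lower Slc25a11, Slc25a20 and Slc25a3 values was not tested. The liver carrier gene Slc25a47 read 71.0 in irradiated and 69.0 in untreated intestine. Of the 7 intestinal epithelial markers measured none passed 1.8-fold, with sums of 79645 in irradiated and 74545 in untreated intestine. In liver 1 of 8 liver markers was lower, Ahsg, at 1586 in irradiated and 2953.5 in untreated liver, and the list summed to 216994 in irradiated and 210366 in untreated liver. In brain 1 of 7 brain markers was lower, the myelin gene Mbp, at 3143.5 in irradiated and 6676 in untreated brain. The whole list, Mbp included, summed to 15636 in irradiated and 19925 in untreated brain. Within the threshold, Mog read 251 in irradiated and 413.5 in untreated brain (1.65-fold lower). Snap25 was nearly level (log2 -0.02), Syt1 and Stmn2 had log2 ratios of -0.21 and -0.23, and Gfap lay on the other side (log2 0.19). Among liver markers in brain, Alb was lower (112 in irradiated and 290 in untreated brain) and Ttr, which the choroid plexus makes, was higher (428.5 in irradiated and 229 in untreated brain). The part of these markers in the Slc25a25 and Slc25a14 values was not tested.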

How the data were processed

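The authors hybridized Cy5-labelled RNA to a mouse whole-genome oligonucleotide array and normalized the spot values after background subtraction and removal of control and low-signal spots. The submitters' processing notes name limma without a version. The deposited values are intensities on a linear scale, in 1 column for each organ and treatment, all multiples of 0.25, with no mark of detection. All mapped columns were used, and the samples were grouped by the labels for tissue and treatment.

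The log2 ratio of irradiated over untreated intensity was taken for each probe of the whole table with no pseudocount, and probes at 1.8-fold or more were counted. With 1 sample in each group no test was made. Symbols were updated to those of RefSeq GRCm38.p6, and no probe position was used. Partner and marker genes with several probes were averaged on the log2 scale. Members with a probe past 1.8-fold were named with every intensity, the others by class, and the up to 5 members with the largest lead in each organ and partner genes past 1.8-fold were named too. Members, classes and lists were chosen with earlier results of these data known.

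Motifs were searched on both strands in the 250 bases before each RefSeq start. Alternatives were median centring, quantile normalization over all 6 samples, lowess correction of the intensity trend (span 0.3), dropping probes below the 25th percentile or below the sample medians, adding 50 to each intensity, a threshold of 1.5-fold or of 2-fold, counting genes or only their brightest probes, and members by symbol alone. The counting was tested on simulated data. Python 3.11.15 was used with numpy 2.4.6, pandas 2.3.3, statsmodels 0.14.6 and matplotlib 3.10.9.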

Additional observations from a re-analysis of the deposited data

How the results depend on the processing

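The 5 carriers past 1.8-fold stayed lower and past their threshold under all 8 alternatives run for each. Some of these could not change the outcome. A threshold of 1.5-fold is looser, and each gene has 1 probe and so no brighter one. All their intensities lay above those dropped as low. Median centring left brain and liver values unchanged, as both samples of each organ share a median. The 5 carriers also passed those that could matter in every organ: quantile normalization, lowess correction, adding 50 and the 2-fold threshold. Their log2 changes ranged between -1.44 and -1.21 for Slc25a11, -1.22 and -1.001 for Slc25a20 and -1.21 and -1.02 for Slc25a3 in intestine, -1.81 and -1.33 for Slc25a25 in liver, and -1.16 and -0.94 for Slc25a14 in brain. With quantile normalization of all samples, 2 carriers passed in brain, as Slc25a4 reached a log2 change of 0.87. At 1.5-fold, 2 carriers passed in brain and 5 in liver. Of the counts of carriers past the threshold, 30 were within 1.5 times the reported count and these 3 were not, and the 27 medians moved by less than the spread of the ratios over all probes. No paired analysis was possible because each group holds 1 sample. Dim signals limit what could be seen: 9 of the 44 genes never stood at or above the medians of both samples of an organ, and without replicates the error of any single value is unknown.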
